A study of Mus musculus with 5 samples.

Results

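The genes that move protons, bicarbonate and other small anions across membranes, together with the carbonic anhydrases, were followed in kidney cortical tissue of *Fnip1* null and wildtype mice. Members were chosen by gene symbol alone: the numbered Slc9, Slc4 and Slc26 genes and the numbered carbonic anhydrases (Car), leaving out *Slc4a1*, *Slc26a4* and *Car9*. This gave 43 of the 24421 genes in the deposited tables, of which 35 had enough counts to be tested.

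Fnip1 is a binding partner of Folliculin, the protein lost in Birt-Hogg-Dube syndrome. One library was made per mouse from 3 *Fnip1* null mice (Fnip1-/-; mice 8637, 9210 and 9121) and 2 wildtype mice (Fnip1+/+ in the labels; mice 9055 and 9056), all with a C57BL6J background. No treatment was given. The null allele came from random ENU mutagenesis, and the disruption was constitutive, so that every cell type carried it. All were adults, although an age or a sex for each mouse was not given in the sources used here. The study text calls its control mice Fnip1+/- in places, while the labels give Fnip1+/+. With 1 kidney library per mouse, p-values set the difference between the groups against the spread between mice within each group, for these 5 mice.

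In the kidney, carbonic anhydrases turn carbon dioxide and water into bicarbonate and a proton. The proximal tubule secretes the proton into the urine through an Slc9 exchanger and returns the bicarbonate to the blood through an Slc4 cotransporter. Further along, intercalated cells of the connecting tubule and collecting duct secrete either acid or bicarbonate, using proton pumps and Slc4 and Slc26 anion exchangers, which let the kidney set the final acidity of the urine.

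Between 15799114 and 19132145 reads were counted on genes per library, and 3 counts corresponded to 0.158 to 0.186 normalized CPM, the unit of level used below, in which a count is scaled to the size of its library. *Fnip1* was at 21.0, 16.9 and 16.0 CPM in the null mice and at 51.7 and 48.6 CPM in the wildtype mice (log2 fold change -1.48, SE 0.138, adjusted p = 0.033 by edgeR). Proximal tubule markers were abundant in all 5 libraries, with 8 of 8 listed genes counted in each. Null mouse 9121 stood apart: its *Xist* level was 314 CPM against 0.171 to 1.41 CPM in the other 4 mice, and 3 of its 4 Y-linked genes were at 0. The Y-linked *Ddx3y*, 1 of these 3, was at 42.8 to 52.1 CPM in the other 4 mice. By these genes mouse 9121 was female and the other 4 mice, both wildtype mice among them, were male. Sex and other traits of mouse 9121 cannot be told apart here. Mouse 9121 also held 14.0 CPM of summed urothelium markers against at most 1.72 CPM elsewhere. Results that rest on it are given with and without it. The 5 podocyte markers summed to 658 to 773 CPM in null and 367 to 370 CPM in wildtype mice, and the 8 leukocyte markers to 282 to 654 CPM and 205 to 291 CPM. In such bulk tissue, fewer cells of a type and less RNA per cell cannot be told apart.

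The transcripts with most RNA per length of gene, as normalized CPM per kilobase of exon (RPKM, averaged over the 5 mice), were those of *Car2* (273 RPKM), *Car12* (127 RPKM), *Car4* (123 RPKM), *Slc4a4* (118 RPKM), *Car15* (109 RPKM), *Car14* (75.7 RPKM) and *Slc9a8* (58.5 RPKM). Thus 5 of the 7 were carbonic anhydrases. *Slc26a1* at 33.9 RPKM, *Slc4a9* at 28.8 RPKM and *Car3* at 26.5 RPKM came next. At the other end, *Car1* and *Car6* had no count in any mouse, which allows a level of at most 0.186 CPM. *Car10*, *Slc26a3*, *Slc26a5*, *Slc26a8*, *Slc26a9* and *Slc4a10* stayed at or below 0.475 CPM in every mouse and were not tested. *Car1* is a carbonic anhydrase of red blood cells, and the globin genes, near-identical in part, were likewise at or under 0.497 CPM. *Alas2*, the remaining erythroid marker, was at 23.3, 17.7 and 16.3 CPM in null mice and 16.1 and 11.3 CPM in wildtype mice.

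**Figure D1:**
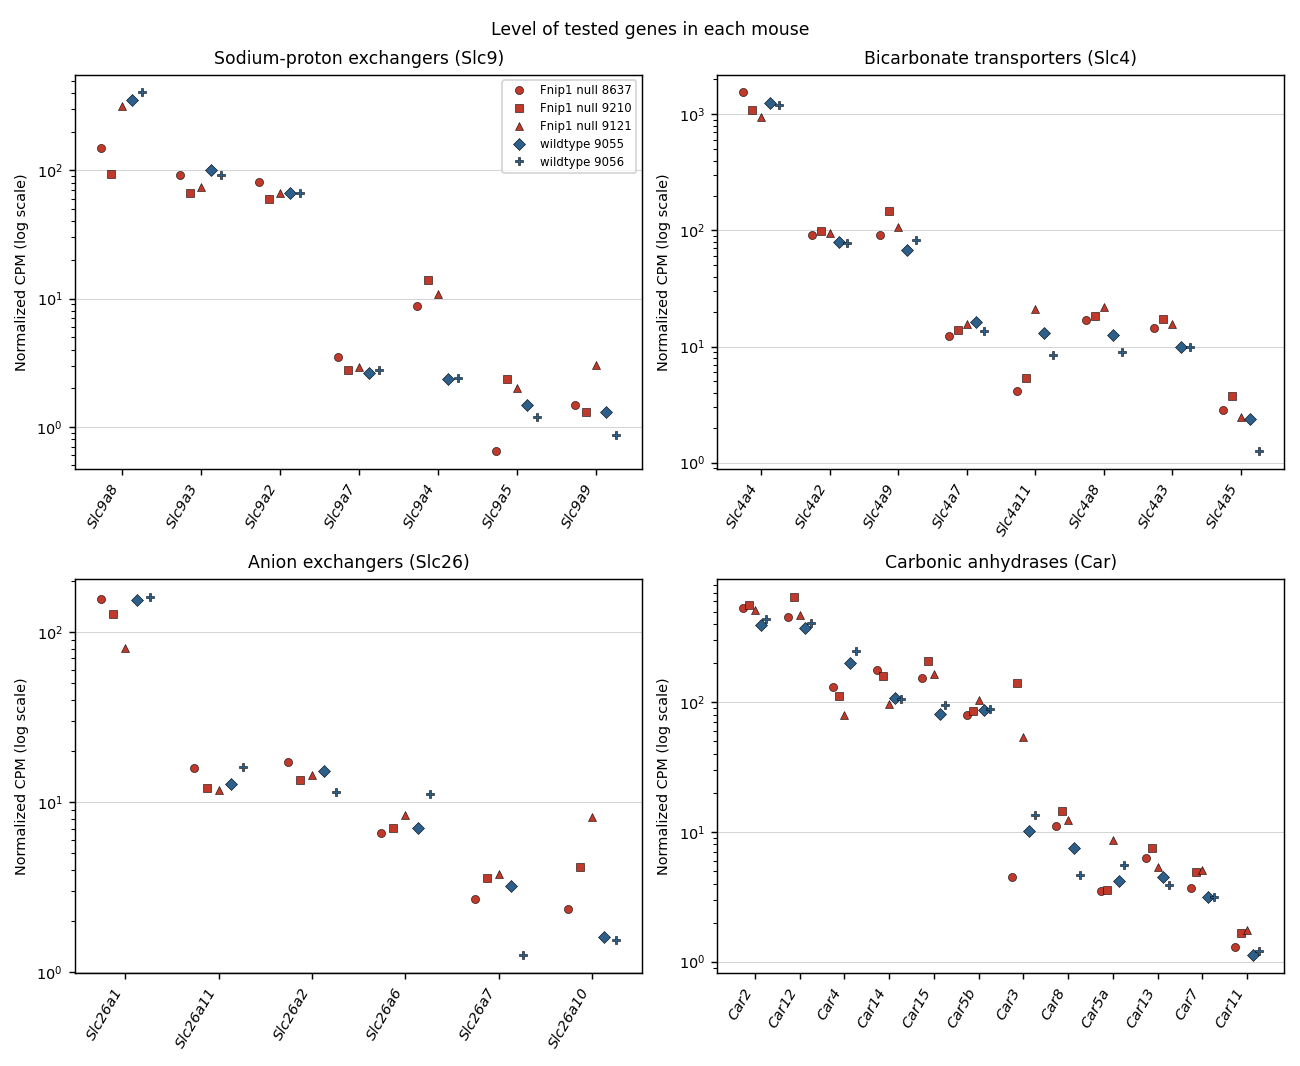
Normalized CPM on a log scale for 33 of the 35 tested genes in each of the 5 mice, one panel per family, with null mice in red and wildtype mice in blue. *Slc9a4* shows 3 null mice at 8.83 to 13.9 CPM above 2 wildtype mice at 2.36 and 2.40 CPM, and *Car3* and *Slc9a8* show null mice far apart from each other.

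In the plot of levels by mouse, most genes lay close together in the 5 mice. *Car3*, *Slc4a11*, *Slc9a5*, *Slc26a10* and *Slc9a8* were spread widely between null mice. A gene was called when its adjusted p was below 0.05 and it differed at least 2-fold. By this rule 1 of the 35 tested genes was called, *Slc9a4*, which was upregulated in *Fnip1* null tissue. Among all 13874 genes tested, 0.526% were called, 0.404% as higher and 0.123% as lower in null tissue. An unadjusted p below 0.05 was reached by 12 of the 35 genes and by 25.1% of all genes. Of the 35, 10 were then higher in null tissue (28.6%, against 14% of all genes) and 2 were lower, among them *Car4* (against 11.2% of all genes). In 16 of the 35 (45.7%) every null mouse lay above both wildtype mice, and this held for 22.9% of all genes. In 3 of the 35 every null mouse lay below both wildtype mice, and this held for 23% of all genes. The median log2 fold change was 0.32 over the 35 genes and 0.0035 over all genes.

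**Figure D2:**
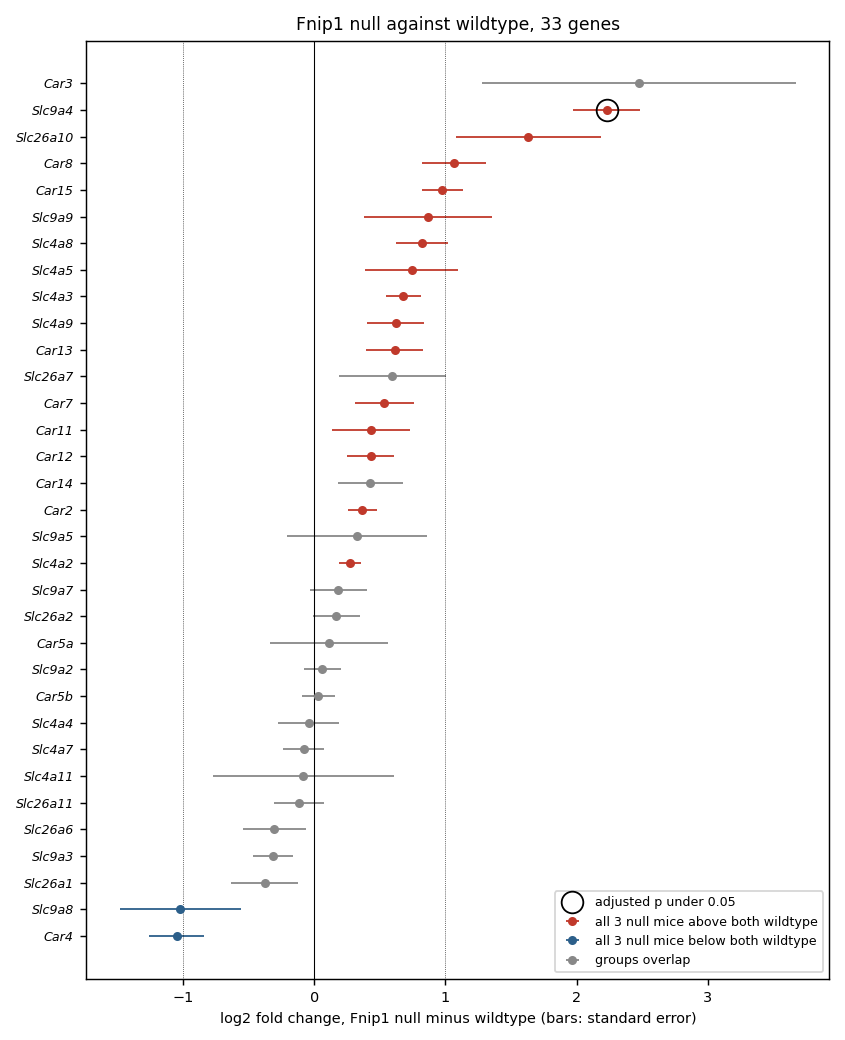
Log2 fold change of *Fnip1* null over wildtype with its standard error for 33 of the 35 tested genes, ordered by size, with red for genes where every null mouse lay above both wildtype mice and blue for the reverse. Only *Slc9a4*, circled, has an adjusted p below 0.05, and the values run from -1.05 for *Car4* to 2.47 for *Car3*.

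The family medians differed. The 8 tested Slc4 genes had a median log2 fold change of 0.45, the 12 carbonic anhydrases 0.43, the 9 Slc9 genes 0.18 and the 6 Slc26 genes 0.03. Summed over its members, the Car family was at 1560, 1945 and 1520 CPM in null mice and at 1278 and 1413 CPM in wildtype mice, so that the groups did not overlap. The Slc9 sum was lower in null mice, at 433, 337 and 576 CPM against 636 and 668 CPM. Most of the Slc9 difference lay in *Slc9a8*, the member with most counts. The Slc4 sums (1779, 1390 and 1224 CPM against 1454 and 1408 CPM) and the Slc26 sums (201, 169 and 128 CPM against 195 and 203 CPM) overlapped between the groups, with null mice the more variable.

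Among the sodium-proton exchangers of the plasma membrane, *Slc9a4* stood out. Slc9a4, also called NHE4, is a basolateral exchanger known from gastric parietal cells and the thick ascending limb. Its counts were 150, 234 and 205 in null mice and 38 and 42 in wildtype mice. After normalization these were 8.83, 13.9 and 10.8 CPM against 2.36 and 2.40 CPM, and the lowest null mouse was well above the highest wildtype mouse. The mean was 11.2 ± 2.55 CPM (SD, n = 3) in null and 2.38 ± 0.0293 CPM (SD, n = 2) in wildtype tissue. The fitted difference was 4.69-fold (log2 fold change 2.23, SE 0.253, adjusted p = 0.0378 by edgeR's quasi-likelihood test). The gene lies on chromosome 1 of GRCm38 at chr1:40580081-40630725, plus strand, and 671 of its 3962 exonic bases are shared with *Gm35801* and *Gm37435* on the opposite strand, neither of which was a row of the count tables. Whether counting used strand was not stated, so reads of these genes cannot be told apart from those of *Slc9a4* there. Its log2 fold change was 2.25 without mouse 9121. It was 2.04 without null mouse 9210, 2.21 without wildtype mouse 9055 and 2.24 without wildtype mouse 9056, with adjusted p of 0.122, 0.216 and 0.508 by the same test.

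The 5 thick ascending limb markers summed to 6926, 6963 and 10541 CPM in null mice and 7756 and 6665 CPM in wildtype mice. Most of each sum was *Umod*, at 5209 to 7912 CPM. All 5 had positive log2 fold changes, with a median of 0.27 (50.5% of all genes were positive). In 2 of the 5, *Kcnj1* (0.39) and *Ptger3* (0.77), every null mouse lay above both wildtype mice (22.9% of all genes). What part thick ascending limb cells had in the *Slc9a4* values was not tested. *Slc9a3*, the apical exchanger that carries most proximal tubule acid secretion, was at 92.7, 66.3 and 74.2 CPM against 101 and 92.2 CPM, with 1 null mouse within the wildtype range (log2 fold change -0.32, SE 0.151, adjusted p = 0.248). *Slc9a2* and *Slc9a5* overlapped between groups, with log2 fold changes of 0.06 and 0.32.

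The exchangers of organelle membranes leaned the other way in part. *Slc9a8*, which acts in the Golgi and in the proximal tubule brush border, was at 151, 93.8 and 317 CPM in null mice 8637, 9210 and 9121 and at 355 and 405 CPM in wildtype mice. All 3 null mice were lower, but mouse 9121 lay far nearer to the wildtype mice than to the other 2 null mice. Over 5 mice the log2 fold change was -1.02 (SE 0.459, adjusted p = 0.226). Without mouse 9121 it was -1.64 (adjusted p = 0.0311 by edgeR's quasi-likelihood test), and the gene was then called. *Slc9a9*, of late endosomes, was at 1.47, 1.31 and 3.06 CPM against 1.30 and 0.857 CPM, with 2 null mice near the higher wildtype mouse. Its log2 fold change of 0.87 (SE 0.488, adjusted p = 0.312) was 0.37 without mouse 9121. *Slc9a7*, of the trans-Golgi network, overlapped between the groups (log2 fold change 0.18).

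The sequence upstream of *Slc9a8* is shown because this gene and *Car4* had the largest negative fold changes among the members. It was taken from the RefSeq promoter table for GRCm38.p6, which held 29 of the 43 members. The 250 bases are chr2:167421460-167421709 on the plus strand, just before the annotated start, and the capitals mark GC boxes, letters GGGCGG or their reverse complement CCGCCC.
Slc9a8: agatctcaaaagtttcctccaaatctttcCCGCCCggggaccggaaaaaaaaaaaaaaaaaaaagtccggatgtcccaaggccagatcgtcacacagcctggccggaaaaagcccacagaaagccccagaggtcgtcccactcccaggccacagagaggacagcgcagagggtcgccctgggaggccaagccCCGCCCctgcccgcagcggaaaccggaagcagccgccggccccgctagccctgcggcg
The window holds 2 GC boxes. Of all 32851 RefSeq promoter windows of this length, 32.7% held a GC box on either strand, as did 16 of the 37 windows of the 29 members. The E-box CACGTG, which reads the same on both strands and lies at the core of sites of the factors Tfeb, Tfe3 and Myc, was found in 3 of the 37 (*Car6*, *Slc26a1* and *Slc9a3*) and in 6.02% of all windows. The forkhead letters TGTTTAC (reverse complement GTAAACA) were in 2 of the 37 (*Car5a* and *Slc26a1*) and in 3.17% of all windows, and TATAAA (reverse complement TTTATA) in 7 of the 37 and in 12.4%. None of these 4 motifs contains another. *Slc9a4*, *Car8*, *Slc4a9* and *Car2* were not among the 29.

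The Slc4 genes were led in level by *Slc4a4*, the basolateral sodium-bicarbonate cotransporter NBCe1 of the proximal tubule. It was at 1546, 1085 and 944 CPM in null mice and 1253 and 1205 CPM in wildtype mice. The null mice fell on both sides of the wildtype mice, with a log2 fold change of -0.04 (SE 0.235, adjusted p = 0.922) whose sign depended on the mice and scaling used (0.10 without mouse 9121). Its binding proteins *Ahcyl1* and *Ahcyl2*, of the IRBIT family, had log2 fold changes of -0.30 and -0.45, with every null mouse below both wildtype mice in each and adjusted p of 0.226 and 0.200.

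Both sodium-independent anion exchangers were higher in every null mouse, though neither passed the adjusted threshold in the quasi-likelihood test. *Slc4a3*, or AE3, best known from heart and brain, was at 14.5, 17.2 and 15.8 CPM against 9.93 and 9.83 CPM, with a narrow spread in both groups (log2 fold change 0.68, SE 0.135, adjusted p = 0.0738). *Slc4a2*, or AE2, the widely expressed basolateral exchanger, was at 91.0, 99.4 and 95.6 CPM against 79.4 and 78.5 CPM (log2 fold change 0.27, SE 0.0836, adjusted p = 0.128). It shares 694 of 4651 exonic bases with *Fastk* on the opposite strand, which was at a mean of 97.7 CPM in null and 89.4 CPM in wildtype tissue.

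The sodium-coupled and other Slc4 transporters included *Slc4a8*, a sodium-driven chloride-bicarbonate exchanger. It was at 16.9, 18.5 and 21.8 CPM in null mice and 12.7 and 8.97 CPM in wildtype mice. The groups did not overlap (log2 fold change 0.82, SE 0.198, adjusted p = 0.0953). *Slc4a9*, or AE4, found on the basolateral side of bicarbonate-secreting intercalated cells, was at 90.7, 147 and 108 CPM against 67.2 and 82.8 CPM, highest in mouse 9210 (log2 fold change 0.62, SE 0.217, adjusted p = 0.154). *Slc4a5*, a cotransporter of low level here, was at 2.83, 3.74 and 2.48 CPM against 2.36 and 1.26 CPM, with the lowest null and the higher wildtype mouse almost equal (log2 fold change 0.74, SE 0.351, adjusted p = 0.245). *Slc4a7* overlapped between groups, with a log2 fold change of -0.08. *Slc4a11*, named after its values were seen, was at 4.12, 5.35 and 21.0 CPM against 13.2 and 8.52 CPM. Mouse 9121 was the highest of all 5 mice and the other 2 null mice the lowest, so that the log2 fold change was -0.08 with mouse 9121 and -1.19 without it (adjusted p = 0.0847 by the quasi-likelihood test).

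In the Slc26 family no direction was shared, and 5 of the 6 tested genes overlapped between the groups. *Slc26a1*, the basolateral sulfate and oxalate exchanger of the proximal tubule, was at 156, 128 and 80.8 CPM in null mice against 155 and 161 CPM in wildtype mice. Null mouse 8637 was at the wildtype level and mouse 9121 the lowest (log2 fold change -0.38, SE 0.253, adjusted p = 0.386; -0.16 without mouse 9121). *Slc26a10*, whose transport function is little known, was at 2.36, 4.16 and 8.13 CPM against 1.61 and 1.54 CPM. All null mice were higher, mouse 9121 most of all, and the log2 fold change was 1.63 (SE 0.554, adjusted p = 0.147), or 1.04 without that mouse. The gene shares 715 of its 3130 exonic bases with *B4galnt1*, a ganglioside synthesis enzyme on the opposite strand. *B4galnt1* was at 18.1, 24.9 and 33.7 CPM in null mice and 14.0 and 10.3 CPM in wildtype mice, in the same order of mice among the null, and reads of the shared bases cannot be assigned to either gene without strand. The log2 fold changes of *Slc26a2*, *Slc26a11*, *Slc26a6* and *Slc26a7* were 0.17, -0.12, -0.31 and 0.59, with adjusted p of at least 0.400.

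Among carbonic anhydrases bound to the cell surface, *Car4* and *Car15* lay in opposite directions. *Car4*, the lipid-anchored enzyme of the proximal tubule brush border, was at 132, 112 and 80.1 CPM in null mice and 199 and 247 CPM in wildtype mice. Every null mouse was lower, with means of 108 ± 26.1 CPM (SD, n = 3) and 223 ± 34.0 CPM (SD, n = 2). The wildtype mean was 2.07-fold the null mean in the fit (log2 fold change -1.05, SE 0.212), and the adjusted p of 0.0738 by the quasi-likelihood test missed the threshold. It passed in edgeR's exact test (adjusted p = 0.000824) and in DESeq2 (adjusted p = 0.000424). Without mouse 9121, which had the lowest level, the log2 fold change was -0.875, under 2-fold, with adjusted p = 0.0467 by the quasi-likelihood test.

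*Car15*, a lipid-anchored enzyme close in kind to Car4, was at 153, 206 and 164 CPM in null mice and 81.3 and 96.0 CPM in wildtype mice. The groups were well apart, at 1.97-fold (log2 fold change 0.98, SE 0.157, adjusted p = 0.0593). Of its 1283 exonic bases, 1052 are shared with *Gm20518*, a gene on the same strand that was not a row of the count tables. Reads of the shared bases cannot be assigned to either gene, even with strand. *Car12*, a transmembrane enzyme, was at 455, 650 and 473 CPM against 376 and 405 CPM, again highest in mouse 9210 (log2 fold change 0.43, SE 0.180, adjusted p = 0.203). *Car14*, the other transmembrane enzyme, was at 177, 159 and 96.3 CPM against 108 and 106 CPM. Here mouse 9121 was the lowest of all mice and the other 2 null mice the highest, with a log2 fold change of 0.43 (SE 0.248, adjusted p = 0.324) that became 0.65 without mouse 9121 (adjusted p = 0.0454 by the quasi-likelihood test). *Car14* shares 445 of 1709 exonic bases with *Aph1a*, on the opposite strand, whose mean was 189.5 CPM in null and 198 CPM in wildtype tissue.

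The windows before *Car4*, lower in null mice, and *Car12*, the member of highest level per length among the 29 with a RefSeq promoter, are shown for comparison with that of *Slc9a8*. They are chr11:84957504-84957753 and chr9:66713436-66713685 of GRCm38.p6, both on the plus strand, with GC boxes in capitals.
Car4: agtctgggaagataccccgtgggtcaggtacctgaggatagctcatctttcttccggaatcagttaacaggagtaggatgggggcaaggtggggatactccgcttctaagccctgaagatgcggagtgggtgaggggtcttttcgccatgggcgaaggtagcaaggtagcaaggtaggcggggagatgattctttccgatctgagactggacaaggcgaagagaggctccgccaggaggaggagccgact
Car12: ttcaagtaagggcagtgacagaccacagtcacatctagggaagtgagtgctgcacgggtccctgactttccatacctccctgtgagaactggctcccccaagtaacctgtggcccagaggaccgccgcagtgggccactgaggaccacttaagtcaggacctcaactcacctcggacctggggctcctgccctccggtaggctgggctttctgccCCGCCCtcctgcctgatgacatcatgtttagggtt
The *Car4* window held none of the 4 motifs, and that of *Car12* held 1 GC box.

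Of the cytosolic enzymes, *Car2*, the main kidney carbonic anhydrase and abundant in intercalated cells, was at 534, 559 and 515 CPM in null mice and 395 and 438 CPM in wildtype mice. The 3 null mice lay close together and above both wildtype mice (log2 fold change 0.36, SE 0.111, adjusted p = 0.126). *Car13* and *Car7* also had every null mouse above both wildtype mice, at 5.38 to 7.54 CPM against 3.89 to 4.47 CPM and at 3.71 to 5.07 CPM against 3.14 to 3.17 CPM. *Car8*, a member without enzyme activity that binds the IP3 receptor, was at 11.1, 14.4 and 12.5 CPM against 7.45 and 4.63 CPM (log2 fold change 1.07, SE 0.243, adjusted p = 0.0870). *Car11*, another inactive member, had a log2 fold change of 0.43 at under 2 CPM. The mitochondrial enzymes *Car5a* and *Car5b*, overlapped between the groups, at log2 fold changes of 0.11 and 0.03 that became -0.47 and -0.09 without mouse 9121, in which *Car5a* was at 8.71 CPM against 3.47 and 3.56 CPM in the other null mice.

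*Car3*, a cytosolic enzyme abundant in fat and muscle, had the largest fold change and the widest spread. It was at 4.48, 141 and 53.8 CPM in null mice 8637, 9210 and 9121 and at 10.2 and 13.6 CPM in wildtype mice. Mouse 8637 was the lowest of all 5 mice and mouse 9210 the highest, and the log2 fold change of 2.47 (SE 1.20) had an adjusted p of 0.253. The summed level of 6 adipocyte markers was 5.89, 219 and 78.0 CPM in the same null mice and 4.84 and 11.0 CPM in the wildtype mice. *Cfd*, the most abundant of these, ran from 2.48 to 151 CPM, and 4 of 4 tested adipocyte markers had positive log2 fold changes, with the groups overlapping in each. The 5 skeletal muscle markers summed to at most 2.18 CPM in any mouse, and *Myh4* was at 0 in all. The part of adipose tissue in the *Car3* values was not tested. Without mouse 8637, the log2 fold change was 3.03 (adjusted p = 0.0123 by the quasi-likelihood test), and without mouse 9210 it was 1.29.

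**Figure D3:**
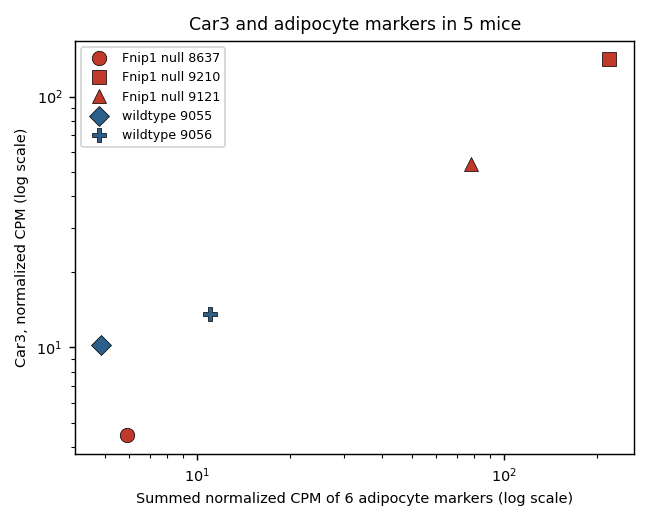
*Car3* level against the summed level of 6 adipocyte markers in the 5 mice, both in normalized CPM on log scales, with null mice in red and wildtype mice in blue. Null mice 9210 and 9121 lie at 219 and 78.0 CPM of markers and 141 and 53.8 CPM of *Car3*, while null mouse 8637 lies with the wildtype mice at low values of both.

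In the plot of *Car3* against adipocyte markers, the 2 mice high in one were also the 2 high in the other. Individual null mice differed in other genes too, and the plot of each null mouse against the wildtype mean sets these side by side. Mouse 9121 was the farthest from the other null mice in 12 of the 35 genes, mouse 8637 in 14 and mouse 9210 in 9.

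**Figure D4:**
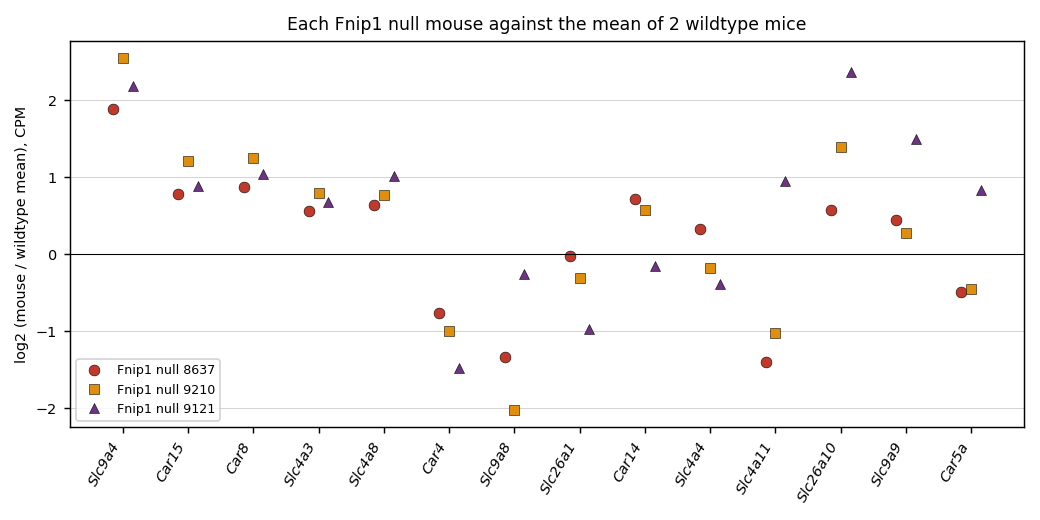
Log2 ratio of each *Fnip1* null mouse to the mean of the 2 wildtype mice, in normalized CPM, for 14 genes. The 3 mice lie close together for *Slc9a4*, *Car15*, *Car8*, *Slc4a3* and *Slc4a8*, while mouse 9121 lies apart for *Slc9a8*, *Slc26a1*, *Car14*, *Slc4a11*, *Slc26a10*, *Slc9a9* and *Car5a*.

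The genes called depended on the test and on the mice. The exact test of edgeR, which called 4.07% of all genes, called *Slc9a4*, *Car4* and *Car8*. The likelihood ratio test (4.53% of all genes) and DESeq2 (3.51%) called these 3 and *Slc26a10*. *Car15*, *Slc4a3* and *Slc4a8*, all under 2-fold, had an adjusted p below 0.05 in these 3 tests, at 9.45e-05, 0.00893 and 0.0117 in the exact test. The quasi-likelihood test without mouse 9121, which called 0.973% of all genes, called *Slc9a4*, *Car15* and *Slc9a8*. With the exact test and DESeq2 on the same 4 mice, runs chosen after seeing the data that called 3.48% and 2.17% of all genes, *Car8* and *Slc4a11* were added to these. Without mouse 8637 the quasi-likelihood test called 6.81% of all genes and 6 members, *Slc9a4*, *Car15*, *Car3*, *Car4*, *Car8* and *Slc26a10*.

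The other genes of renal acid handling were followed with a list of 32, of which 30 were tested. Of these, 1 was called, *Atp4a*, against 0.526% of all genes. At an unadjusted p below 0.05, 13 were higher and 2 lower in null tissue (14% and 11.2% of all genes were), and the median log2 fold change was 0.36. The proton pumps and channels held 6 of the 13. All 8 of them had a positive log2 fold change (50.5% of all genes did), with a median of 0.94, and in 7 of 8 every null mouse lay above both wildtype mice (22.9% of all genes).

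*Atp4a*, the catalytic subunit of the gastric proton-potassium pump, was at 138, 217 and 186 CPM in null mice and 56.3 and 57.9 CPM in wildtype mice. It was upregulated (log2 fold change 1.66, SE 0.197, adjusted p = 0.0378), with the groups far apart. *Atp12a*, the colonic form of the same pump, was at 12.6, 42.4 and 33.1 CPM against 1.55 and 1.94 CPM (log2 fold change 4.06, SE 0.591, adjusted p = 0.0506). *Atp6v0d2*, a subunit of the vacuolar proton pump found in intercalated cells, was at 104, 155 and 120 CPM against 46.3 and 55.4 CPM (log2 fold change 1.31, SE 0.189, adjusted p = 0.0506). Both missed the threshold narrowly, and neither overlapped between the groups. The vacuolar subunit *Atp6v0a4*, by contrast, overlapped between the groups (log2 fold change 0.17).

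**Figure D5:**
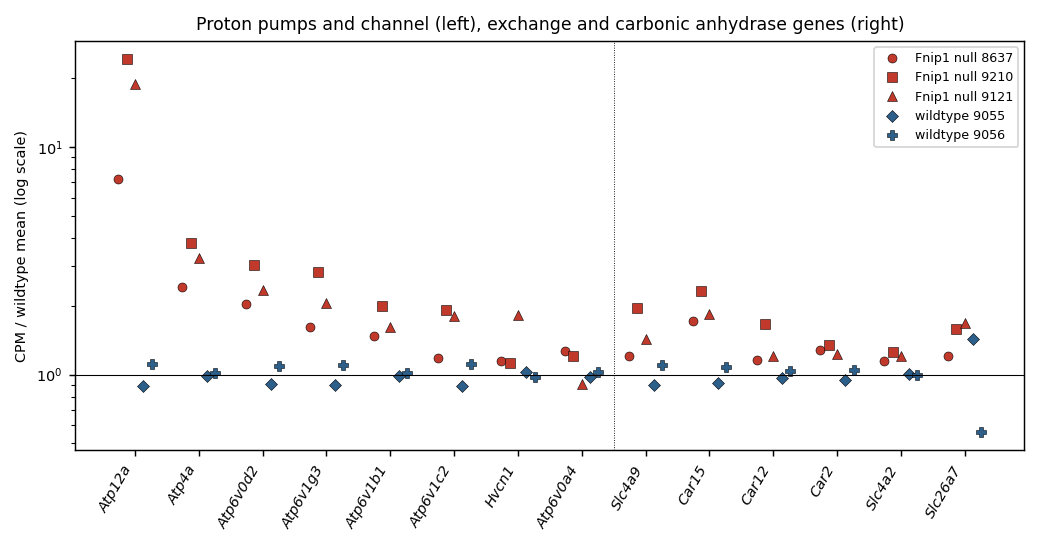
Normalized CPM divided by the wildtype mean, on a log scale, for 8 proton pump and channel genes at left and 6 exchange and carbonic anhydrase genes at right, with null mice in red and wildtype mice in blue. Null mice lie above both wildtype mice in 7 of the 8 genes at left, and the ratios of *Atp12a* and *Atp4a* are larger than those of the 6 genes drawn at right, which leave out *Slc9a4*. The 6 are a selection, all with positive log2 fold changes, while 10 of the 35 tested members, among them *Car4* and *Slc9a8*, had negative ones.

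The markers of intercalated cells lay in the same direction as these pumps, with which they share *Atp6v0d2*, *Atp6v1b1* and *Atp6v1g3*. The 7 intercalated markers summed to 563, 871 and 717 CPM in null mice and 358 and 378 CPM in wildtype mice. All 7 had positive log2 fold changes (median 0.77; 50.5% of all genes were positive), and in 6 of them every null mouse lay above both wildtype mice, against 22.9% of all genes. What part the number of intercalated cells had in these values was not tested. Principal cell markers, from the neighbouring cells of the collecting duct, summed to 506, 679 and 645 CPM against 420 and 426 CPM, with 4 of 6 higher and 1, *Avpr2*, lower in every null mouse (22.9% and 23% of all genes).

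Proximal tubule markers, the background to *Car4*, *Slc4a4*, *Slc9a3*, *Slc9a8* and *Slc26a1*, summed to 15374, 12586 and 11697 CPM in null mice and to 16506 and 18934 CPM in wildtype mice. Of the 8 markers, 6 had negative log2 fold changes (median -0.28). In 3 of them every null mouse lay below both wildtype mice, and in 2 every null mouse lay above, against 23% and 22.9% of all genes. The fold change of *Car4*, -1.05, lay below that of every one of these markers, whose lowest was -0.80 for *Slc27a2*. The difference between *Car4* and these markers was not tested.

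Proteins that bind or regulate the exchangers were mixed in direction, with 5 positive and 5 negative log2 fold changes among 10 tested. *Slc9a3r1* and *Pdzk1*, brush border scaffolds, had log2 fold changes of -0.37 and -0.40, and every null mouse was below both wildtype mice in each. *Stk39*, the kinase SPAK, was at 53.0, 62.5 and 67.6 CPM in null mice against 36.1 and 38.0 CPM in wildtype mice (log2 fold change 0.72, SE 0.126, adjusted p = 0.0644). Of the 6 genes of ammonia production and transport, the ammonia channels *Rhcg* and *Rhbg* had log2 fold changes of 0.95 and 0.59 with adjusted p of 0.0719 and 0.102.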

How the data were processed

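RNAseq was performed by the authors on frozen kidney cortical tissue with the TruSeq RNA kit and paired reads of 50 bases. Reads were aligned to mm10 with TopHat2 2.1.0 and counted per gene with HTSeq 0.6.1, and the whole-number counts were deposited, 1 table per mouse. The counting mode and strand setting were not given in the sources used here, and 28.3% to 31.4% of the reads in the tables were marked as multimapped, so the counts of near-identical genes are incomplete. The tables were joined by gene symbol, and rows naming no gene were left out. The table of null mouse 9210 carries another mouse number in its own name, and the number in its label was used.

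Genes with under 10 counts in more than 2 of the 5 mice were removed, leaving 13874. Libraries were scaled by TMM, with factors of 0.914 to 1.09. Null and wildtype mice were compared by the quasi-likelihood test of edgeR 4.0.16 in R 4.3.3, with adjusted p by the Benjamini-Hochberg method over all genes tested, and a gene was called at an adjusted p below 0.05 and at least 2-fold. SE is the log2 fold change divided by the root of the F statistic, RPKM used GENCODE M21 exon lengths, and values with an SD are means over mice. Libraries of 1 group correlated at 0.972 to 0.992 across genes. Alternatives were DESeq2 1.42.0, the exact test and the likelihood ratio test of edgeR, other scalings and filters, and leaving out each mouse. The script was tested on simulated data.

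Members were chosen by symbol, and members, gene lists and tests were chosen with earlier results of these data known. Mouse by mouse values are given for members past the adjusted threshold, the 10 with the largest fold change, the 10 with the highest level per length and the 10 non-overlapping ones with the smallest p, and for the related genes those past the threshold or with the 3 smallest p; other genes named were chosen after their values were seen. Some genes that these rules name are counted in the totals but not reported here.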

Additional observations from a re-analysis of the deposited data

How the results depend on the processing

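The number of mice (5) limits every test. *Slc9a4* was called under all alternatives except those leaving out null mouse 9210 or either wildtype mouse. Genes called (73) were 565 by the exact test, 628 by the likelihood ratio test and 487 with DESeq2, exchange genes called (1) were in that order 3, 4 and 4, and related acid-base genes called (1) were 5 by each. *Car4* and *Car8* were in all 3 of these sets of exchange genes, and *Slc26a10* in the last 2. Related genes called were 2 (of 74 genes called in all) by the legacy quasi-likelihood method, 2 (of 85) with library size only and 3 (of 89) with no filter. Leaving out 1 mouse gave 0 to 962 genes, 0 to 6 exchange genes and 0 to 6 related genes called. The fits without null mouse 9210, wildtype mouse 9055 or wildtype mouse 9056 called 0, with 2084, 2485 and 1233 genes at an unadjusted p below 0.05, of which 8, 9 and 9 were exchange genes. The 962 and the 6 exchange genes came without mouse 8637. Without mouse 9121 the quasi-likelihood test called 136 genes, among them 3 exchange genes (*Car15*, *Slc9a4* and *Slc9a8*). In 2 alternatives chosen after seeing the data, the exact test and DESeq2 without mouse 9121 called 486 and 304 genes, 5 and 5 exchange genes (*Car15*, *Car8*, *Slc4a11*, *Slc9a4* and *Slc9a8*) and 5 and 4 related genes. The median log2 fold change of exchange genes (0.32) was 0.50 with library size only, where the median of all genes was 0.17, 0.25 to 0.37 on leaving out 1 mouse and 0.27 by the exact test without mouse 9121. *Fnip1* ranged from -1.61 to -1.40 on leaving out 1 mouse and passed an adjusted p of 0.05 in 2 of these 5 fits. *Slc4a4* turned positive with library size only (0.10), without mouse 9210 (0.02) and without mouse 9121 (0.10, 0.10 by the exact test and 0.10 by DESeq2), in a range of -0.28 to 0.10 on leaving out 1 mouse. The causes of these shifts were not tested. Of 285 gene and setting pairs over 19 named members, 234 kept direction and side of the threshold, 43 newly passed it, 3 no longer did and 5 turned sign. No paired analysis was possible because mouse numbers are not shared between the groups.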

Other observations

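Markers of other kidney cells, from lists chosen with earlier results known, lay as follows. Of the 3 distal convoluted tubule markers, *Slc12a3*, the sodium-chloride cotransporter, was at 959, 970 and 1073 CPM in null mice and 666 and 771 CPM in wildtype mice, with every null mouse higher (log2 fold change 0.48, adjusted p = 0.121 by edgeR). *Trpm6*, a magnesium channel, also had every null mouse higher, with a log2 fold change of 0.58 (adjusted p = 0.0876 by edgeR). *Pvalb* overlapped between the groups, with a log2 fold change of -0.02. Of the 5 endothelial markers all had positive log2 fold changes (50.5% of all genes did), from 0.55 to 0.76, with the smallest adjusted p at 0.112. In 2 of them every null mouse lay above both wildtype mice (22.9% of all genes), and in 3 the groups overlapped. The podocyte markers *Nphs1* and *Synpo* had adjusted p below 0.05, with log2 fold changes of 1.08 and 0.90.

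The proton-sensing receptor *Gpr65*, a gene of leukocytes, was at 1.53, 1.96 and 2.69 CPM in null mice and 0.745 and 0.457 CPM in wildtype mice, with no overlap (log2 fold change 1.78, SE 0.418, adjusted p = 0.0903). Of the 8 leukocyte markers, 7 had every null mouse above both wildtype mice and *Csf1r*, a macrophage receptor, had every null mouse below them, against 22.9% and 23% of all genes. *Gpr4*, a related receptor, had a log2 fold change of 0.44.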
